A study of Homo sapiens with 12 samples.

Results

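Of the 3281 genes that the authors listed as changed by lipopolysaccharide (LPS) in at least 1 genotype of THP-1 macrophages, 189 had no gene symbol in the tables and were listed by a clone name or a locus number. They were taken from both deposited tables by their identifiers alone. The 164 identifiers made of LOC and digits are gene numbers of NCBI, and the 25 that begin with RP, digits and a hyphen are names of genomic clones. None began with CTD-, CTC- or CTB-. THP-1 cells come from a human monocytic leukaemia and become macrophage-like when the phorbol ester PMA is given, and LPS, from the outer membrane of bacteria, activates them through TLR4. The edited cells carried the S80A form of NFKB1, which has alanine in place of a serine in p50, a subunit of NF-κB, and the study compared their LPS response with that of wild-type cells. The groups were S80A cells with LPS at 10 ng/ml for 3 hr, S80A cells at 0 hr, wild-type (WT) cells with LPS at 10 ng/ml for 3 hr and WT cells at 0 hr, with 3 libraries each. All 4 groups had first been differentiated for 72 hr in 25 ng/ml PMA and rested for 4 days without it. How the edited line was made, whether it is a single clone and whether the replicates were separate cultures is not stated in the labels. The p-values therefore measure the spread between these libraries, which may be technical, and genotype cannot be told apart from other differences between the lines. A point edit leaves no mark on the read count of its gene, so NFKB1 expression gives no check of the labels.

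Most genes that are known by a locus number or clone name are long non-coding RNAs, transcripts that are spliced and polyadenylated like messenger RNAs but encode no known protein. Many start close to a coding gene, either divergently from a shared promoter region (named -DT, divergent transcript) or on its opposite strand (-AS, antisense). In macrophages, LPS is known to induce both coding genes and long non-coding RNAs through NF-κB, AP-1 and interferon regulatory factors, and p50 is a DNA-binding NF-κB subunit that lacks an activation domain. By gene number, 103 of the 164 LOC members matched RefSeq (assembly GRCh38.p14) and 62 of these now have another symbol. RefSeq classes 88 of the 103 as long non-coding RNAs, 8 as transcribed pseudogenes, 1 as a pseudogene and 6 as protein-coding genes. The clone names matched no entry of the annotation used here and are given by name alone.

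Expression is given as scaled reads, the reads of a gene divided by 1 size factor per library, which compares libraries for 1 gene but is not per length. The listed genes together took up to 5789918 reads (S80A replicate 1 at 3 hr) and at least 1924562 (WT replicate 1 at 0 hr), which is part of each library and not its depth. Counting support for the members was low: the median member averaged 21.4 scaled reads over the 12 libraries, against 246.6 for all listed genes, and 139 of the 189 averaged at least 10. No filter on low values was applied in the limma fits, so all 189 entered the genotype tests at 0 and 3 hr, and the 85 listed in both tables entered the test of the LPS response. Within the members, the first principal component held 72.6% of the variance and separated 3 hr from 0 hr, and the second held 13.7% and separated the genotypes. On the second component S80A replicate 1 scored -5.34 at 3 hr and -3.01 at 0 hr, nearest the WT libraries at each time, while the other S80A libraries ranged from -10.3 to -5.99 and the WT libraries from 4.13 to 9.29. Results below are therefore also given without it. The libraries were made with a stranded kit, but the strand setting of the counting is not given in the sources used here, so reads of overlapping genes on opposite strands cannot be told apart. Of 14 monocyte and macrophage markers, 4 were in the tables: CD14 and MERTK were listed as falling with LPS in both genotypes, and FCGR3A and CD163 in WT cells alone. MERTK differed between genotypes, with 483 ± 74.3 scaled reads in S80A cells and 77.0 ± 10.2 in WT cells at 3 hr (SD, n = 3 each), a difference of 2.63 ± 0.22 log2 (SE, limma adjusted p = 0.000785), and 1.22 ± 0.17 log2 (SE, limma adjusted p = 0.00814) at 0 hr. CD163 averaged 1015 ± 136 in S80A cells and 2297 ± 836 in WT cells at 0 hr (SD, n = 3 each), a difference of -1.11 ± 0.32 log2 that missed the threshold (SE, limma adjusted p = 0.0509). The part of these markers in the genotype differences below was not tested. Of the T cell, B cell, epithelial, endothelial, neutrophil and fibroblast markers examined, only CD79B was in the tables, with group means of 10.0 to 35.5 scaled reads. In bulk RNA, fewer cells that express a transcript and less of it per cell cannot be told apart.

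Rises with LPS outnumbered falls among the members. In S80A cells 97 members rose and 29 fell by the authors' call (a log2 fold change beyond 1 or -1 with an adjusted p under 0.01), which is 51.3% and 15.3% of the 189 members, against 46.2% and 30.2% of all 3281 genes. In WT cells 107 rose and 41 fell, or 56.6% and 21.7% of the members, against 43.9% and 27.2% of all genes. Membership itself rests on these calls, so the counts are descriptions without a test. Both tables held 85 members, with 67 rising in both, 17 falling in both and 1 going opposite ways. Only the S80A table held 41 members (30 rose, 11 fell), and only the WT table held 63 (39 rose, 24 fell). The median log2 fold change of the rising members in the authors' deposited tables was 2.62 in S80A cells and 2.60 in WT cells, against 2.17 in S80A cells and 2.20 in WT cells for all rising genes of those tables. For the falling members the authors' deposited tables gave medians of -1.57 in S80A cells and -1.92 in WT cells, against -1.45 in S80A cells and -1.47 in WT cells for all falling genes.

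Several members had next to no reads before LPS and many after it. RP11-701P16.5 had 792, 451 and 228 scaled reads in S80A cells at 3 hr, against 0, 2.33 and 1.05 in S80A cells at 0 hr. In WT cells it had 536, 589.6 and 507 at 3 hr and no reads in any library at 0 hr. The times did not overlap in either genotype, and the 3 S80A libraries at 3 hr spread far more widely than the WT ones. Taking 3 reads per group as the floor, the WT level at 3 hr was at least 661-fold higher than at 0 hr, and the S80A ratio of reads was 403 with a 95% counting interval of 157 to 1480.0. Counting intervals cover counting error only. LOC102723726 reached 2539, 2571 and 1934 scaled reads in S80A cells at 3 hr, against 70.7, 33.4 and 29.4 in S80A cells at 0 hr, and 2434, 3154 and 2746 in WT cells at 3 hr, against 48.5, 73.2 and 75.8 in WT cells at 0 hr. The genotypes overlapped at both times. LOC440934, now CT75, a cancer/testis transcript, had 4034, 2045 and 2310.4 scaled reads in S80A cells at 3 hr, against 54.8, 50.4 and 131 in S80A cells at 0 hr. In WT cells CT75 had 789, 1154 and 1153 at 3 hr, against 19.1, 60.3 and 99.2 at 0 hr. All 3 S80A libraries lay above all 3 WT libraries at 3 hr, by 1.39 ± 0.32 log2 (SE, limma adjusted p = 0.0124), and the genotypes overlapped at 0 hr. In a limma fit of all 12 libraries the adjusted p of CT75 was 0.0542.

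LOC102724850, now CCL3-AS1, lies across the chemokine gene CCL3 at chr17:36074613-36089862 of GRCh38.p14 and next to CCL4. It had 179, 169 and 179 scaled reads in S80A cells at 3 hr, against 2.99, 5.43 and 4.20 in S80A cells at 0 hr, and 141, 169 and 232 in WT cells at 3 hr, against 0, 2.41 and 0.807 in WT cells at 0 hr. The times were far apart in both genotypes and the genotypes overlapped at 3 hr. CCL3 itself had log2 fold changes of 6.73 in S80A cells and 7.87 in WT cells in the authors' deposited tables, beside 5.08 in S80A cells and 6.45 in WT cells for CCL3-AS1. LOC284648, now LINC01686, averaged 260.5 ± 84.9 scaled reads in S80A cells at 3 hr and 17.9 ± 5.30 in S80A cells at 0 hr, beside 223 ± 27.4 in WT cells at 3 hr and 11.9 ± 2.59 in WT cells at 0 hr (SD, n = 3 each). RP4-607I7.1 averaged 112 ± 41.2 scaled reads in S80A cells at 3 hr and 52.1 ± 14.8 in WT cells at 3 hr, with 1 read over the S80A libraries at 0 hr and 3 over the WT ones. Its ratio of reads, 3 hr over 0 hr, was 365 with a 95% counting interval of 65.0 to 14470.0 in S80A cells and 62.6 with a 95% counting interval of 21.0 to 307 in WT cells, and these intervals overlap. LOC101928813, now LINC02757, had log2 fold changes of 5.57 in S80A cells and 3.93 in WT cells in the authors' deposited tables. RP4-553F4.6, LOC100507403, LOC100288175 and RP11-356I2.4 rose in both genotypes from a measurable level at 0 hr, with authors' deposited log2 fold changes of 1.71 to 3.19 in S80A cells and 1.86 to 3.38 in WT cells.

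**Figure D1:**
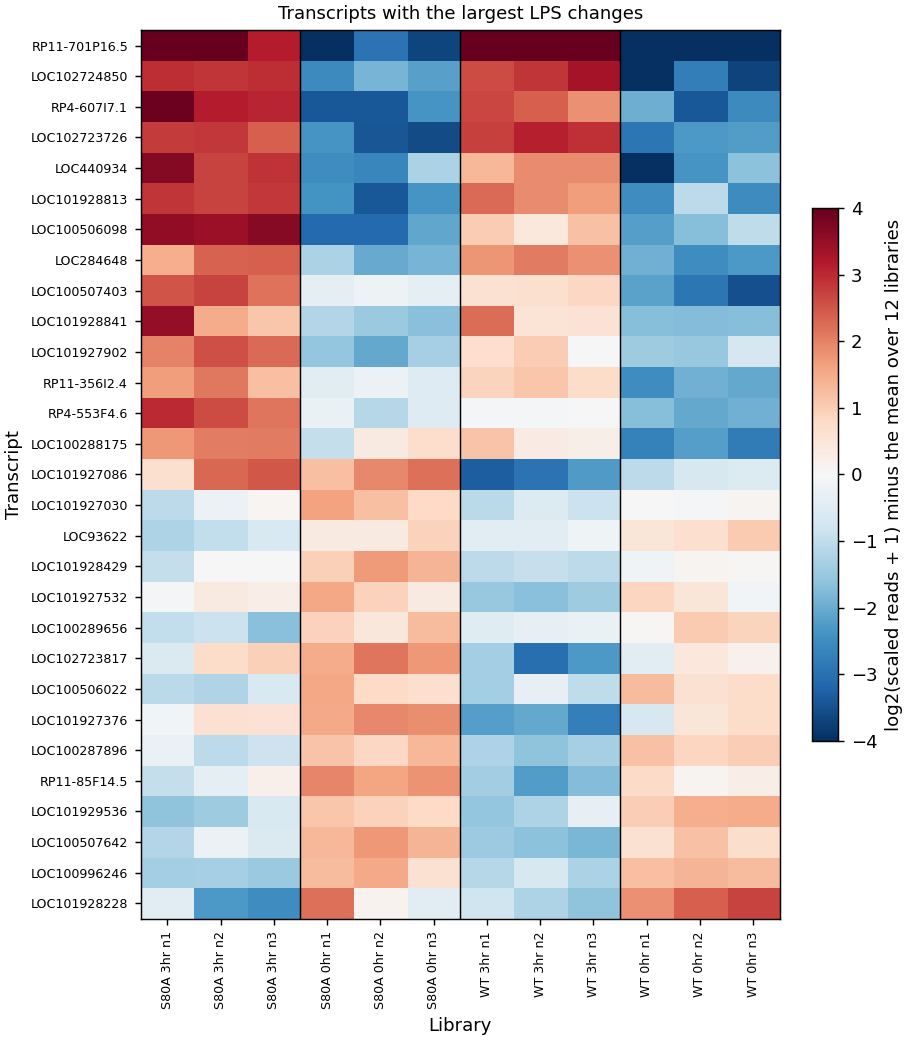
Log2(scaled reads + 1) of the members with the largest LPS changes, chosen by the rule for named genes, in each of the 12 libraries, minus the mean of the row over the 12 libraries. Colours saturate at 4 and -4. RP11-701P16.5 and CCL3-AS1 (LOC102724850) are high in all 6 libraries at 3 hr, while LOC101927086 is high in all S80A libraries at both times.

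Falls were smaller. LOC101928429, now MAP3K5-AS2, is antisense to the gene of the stress kinase ASK1. It had 388, 756 and 735 scaled reads in S80A cells at 3 hr, against 1451, 2413 and 1915 in S80A cells at 0 hr. In WT cells MAP3K5-AS2 had 358, 390.3 and 359.7 at 3 hr, against 683, 808 and 766 at 0 hr. The times did not overlap in either genotype, and S80A replicate 1 was the lowest S80A library at both times. LOC101928228, now LINC03070, had 28.0, 6.90 and 5.99 scaled reads in S80A cells at 3 hr and 177, 41.9 and 28.3 in S80A cells at 0 hr, so S80A replicate 1 was several times above the other S80A libraries at both times. In WT cells LINC03070 had 21.1, 15.6 and 11.8 at 3 hr, against 137, 202 and 252 at 0 hr. RP11-85F14.5 averaged 66.5 ± 26.8 in S80A cells at 3 hr and 282 ± 38.5 in S80A cells at 0 hr, beside 23.6 ± 6.96 in WT cells at 3 hr and 108 ± 27.6 in WT cells at 0 hr (SD, n = 3 each). It was higher in S80A cells at both times, by 1.42 ± 0.36 log2 (SE, limma adjusted p = 0.0182) at 3 hr and 1.39 ± 0.22 log2 (SE, limma adjusted p = 0.0105) at 0 hr. The call at 3 hr was lost without S80A replicate 2 and without WT replicate 2 or 3 (adjusted p of 0.0525 to 0.0652). LOC100507642, now LINC03014, LOC100996246, now LINC02361, and LOC101929536 fell in both genotypes, with authors' deposited log2 fold changes of -2.57 to -2.07 in S80A cells and -2.47 to -2.26 in WT cells. RP11-277P12.20 had no reads in any library at 3 hr in either genotype, against 9.96, 12.4 and 12.6 scaled reads in S80A cells at 0 hr and 0.866, 2.41 and 2.42 in WT cells at 0 hr. By the same floor it was at least 10.1-fold lower at 3 hr than at 0 hr in S80A cells. LOC100507616, now LINC02397, had 1 read over the 3 WT libraries at 3 hr, against 80 reads at 0 hr.

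RefSeq places 103 members on GRCh38.p14, of which 48 overlap a coding gene and 69 overlap one or lie within 5 kb of one. By name, 33 refer to a coding gene. Strands are known for 54 members and their coding neighbours, and 22 of these lie on the opposite strand with starts within 1000 bases. Each member was set beside its partner, the coding gene of its name or otherwise the nearest one. Among 67 placed members of the S80A table, 28 had a listed partner, and 26 of these moved the same way as the partner. Among 85 placed members of the WT table, 36 had one, and 32 of these moved the same way. Of the other listed genes with a listed nearest coding gene, 402 of 450 in S80A cells and 326 of 387 in WT cells also moved the same way. The share with a partner listed in the same direction was 38.8% in S80A cells and 37.6% in WT cells, against 17.1% in S80A cells and 15.1% in WT cells for the other listed genes and their nearest coding genes. Among pairs that do not overlap, which share no reads, the share was 27.0% in S80A cells and 34.0% in WT cells, against 16.5% in S80A cells and 14.7% in WT cells for the other genes. These shares were not tested, and the partners of the members were in part chosen by name.

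**Figure D2:**
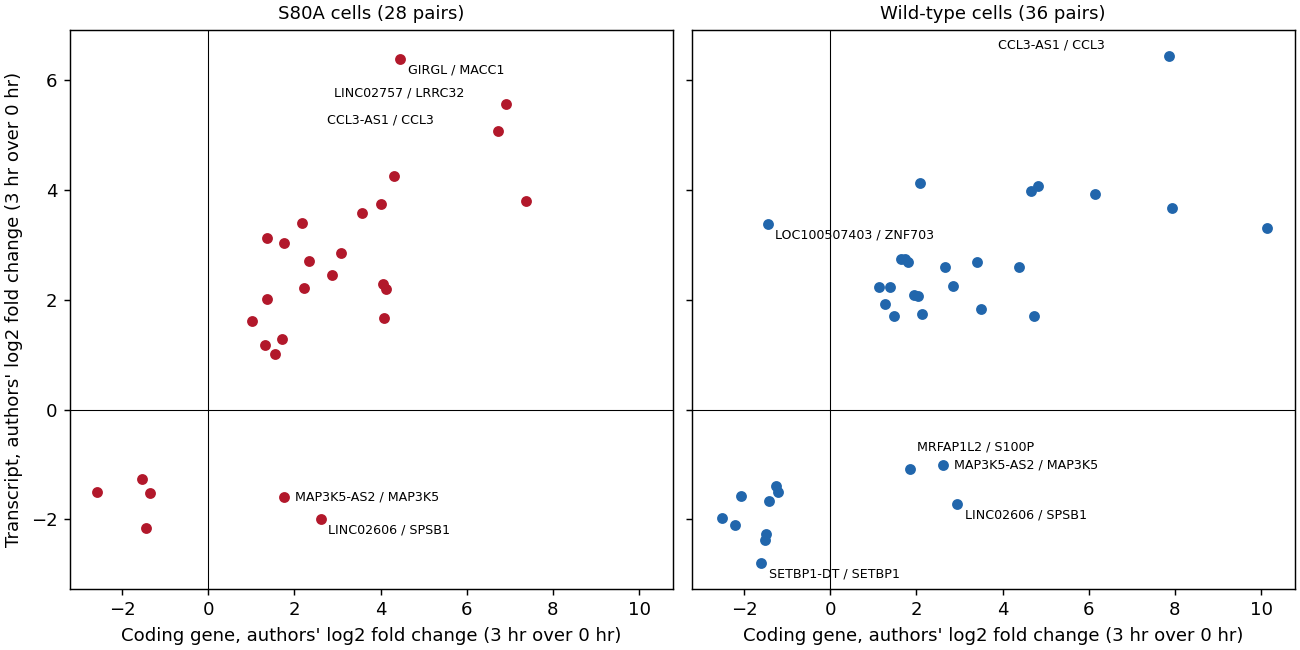
Authors' log2 fold change (3 hr over 0 hr) of a member (vertical axis) and of its coding partner (horizontal axis), for pairs with both listed in S80A cells (left, 28 pairs) and in WT cells (right, 36 pairs), one point per pair. Nearly all points lie in the quadrants of equal sign, with CCL3-AS1 and CCL3 at the upper right and 2 pairs of opposite sign in S80A cells, against 4 in WT cells. Most such pairs of the other listed genes, not shown, were also of equal sign (402 of 450 in S80A cells and 326 of 387 in WT cells).

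LOC100288911, now CRIM1-DT, lies 208 bases from CRIM1, the gene of a transmembrane BMP-binding protein, and had log2 fold changes of 4.25 in S80A cells and 3.98 in WT cells in the authors' deposited tables, beside 4.31 in S80A cells and 4.66 in WT cells for CRIM1. LINC02757 lies 27102 bases from LRRC32, the gene of the TGF-beta docking receptor GARP, whose log2 fold changes in the authors' deposited tables were 6.91 in S80A cells and 6.14 in WT cells. LINC01686 lies 10751 bases from RGS16, a regulator of G protein signalling, with 4.01 in S80A cells and 4.82 in WT cells in the authors' deposited tables. PIK3R5-DT (LOC101928235), which starts 140 bases from the gene of a regulatory subunit of PI3-kinase gamma, rose with it in both genotypes. CYLD-AS1 (LOC102724907), antisense to the gene of the deubiquitinase CYLD, also rose with its partner in both. Falling pairs were fewer. LOC101928230 starts 150 bases from MAF, the gene of a transcription factor of resident macrophages, and had log2 fold changes of -1.50 in S80A cells and -1.98 in WT cells in the authors' deposited tables, beside -2.58 in S80A cells and -2.52 in WT cells for MAF.

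Some pairs moved in opposite directions. MAP3K5-AS2 fell in both genotypes while MAP3K5 rose, with log2 fold changes of 1.76 in S80A cells and 2.63 in WT cells for MAP3K5 in the authors' deposited tables, beside -1.59 in S80A cells and -1.01 in WT cells for the antisense transcript. LINC02606 (LOC100506022) fell in both while SPSB1, the gene of a ubiquitin ligase adaptor 55562 bases away, rose. In WT cells MRFAP1L2 (LOC93622) fell while S100P, a calcium-binding protein gene 17831 bases away, rose. LOC100507403 rose there while ZNF703, a zinc finger gene 363851 bases away, fell. Neither partner was listed in the S80A table. S100P averaged 1.57 scaled reads in S80A cells at 3 hr and 2.03 at 0 hr, against 168 in WT cells at 3 hr and 45.1 at 0 hr. ZNF703 averaged 574 ± 365 in S80A cells at 3 hr and 1103 ± 123 at 0 hr (SD, n = 3 each).

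Promoters in RefSeq, read from 250 bases before to 50 bases after the start site, were available for 64 members (69 promoters). The NF-κB consensus, searched on both strands, was found in 14.5% of the promoters of all members, against 15.1% of promoters of the other listed genes and 11.3% of all RefSeq promoters. By direction it was in 9 of 41 promoters of members that rose in a table (22.0%) and in 1 of 28 promoters of members that only fell (3.57%). The other listed genes were not split by direction, so this contrast is a description. Matches in the near-identical promoters of NOTCH2NLC (LOC100996717) and a copy of it were counted separately. AP-1 sites (TGANTCA) were in 4.88% of promoters of rising members and 10.7% of falling ones, against 7.71% of all promoters. The interferon response motif (GAAANNGAAA) was in 7.32% of rising and in 0 of 28 falling ones, against 3.57% of all, and the TATA motif (TATAAA) in 9.76% and 14.3%, against 11.5% of all. These are matches of letters and show neither binding nor its absence. Promoters of 5 members are shown, 5′ to 3′ in the direction of transcription, because the results below turn on them or, for LOC101929536, because it is the falling member with an NF-κB match. Capitals mark the motif matches. LINC01686, which rose in both genotypes (chr1:182614890-182615189, plus strand), has an NF-κB match at position -241 from the start site and an interferon response match at -175. JDP2-AS1, which was higher in S80A cells at 3 hr (chr14:75427606-75427905, minus strand), has an NF-κB match at -131. KLF9-DT, which was higher in S80A cells at both times (chr9:70413940-70414239, plus strand), has an AP-1 match at -170. LOC102724608, which was lower in S80A cells at both times (chr22:50539619-50539918, plus strand), has an NF-κB match at -63. LOC101929536 (chr1:39788726-39789025, plus strand) has one at +22.
LINC01686: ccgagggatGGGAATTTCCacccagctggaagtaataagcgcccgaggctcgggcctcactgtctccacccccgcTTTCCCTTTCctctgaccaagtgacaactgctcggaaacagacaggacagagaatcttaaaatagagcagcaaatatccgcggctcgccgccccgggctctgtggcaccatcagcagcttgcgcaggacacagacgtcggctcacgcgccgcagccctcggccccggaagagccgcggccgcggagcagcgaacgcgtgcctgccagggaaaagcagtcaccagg
JDP2-AS1: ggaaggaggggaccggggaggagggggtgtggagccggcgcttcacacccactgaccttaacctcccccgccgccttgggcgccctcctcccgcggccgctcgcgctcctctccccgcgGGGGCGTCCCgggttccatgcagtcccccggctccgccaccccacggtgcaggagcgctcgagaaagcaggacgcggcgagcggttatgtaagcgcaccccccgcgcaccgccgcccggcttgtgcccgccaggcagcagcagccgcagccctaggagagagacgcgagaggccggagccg
KLF9-DT: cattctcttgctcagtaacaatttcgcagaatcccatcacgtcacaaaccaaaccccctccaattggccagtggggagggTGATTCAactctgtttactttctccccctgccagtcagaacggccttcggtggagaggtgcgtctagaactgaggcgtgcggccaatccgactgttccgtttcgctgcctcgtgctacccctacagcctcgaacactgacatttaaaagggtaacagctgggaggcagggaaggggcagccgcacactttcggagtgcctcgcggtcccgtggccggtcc
LOC102724608: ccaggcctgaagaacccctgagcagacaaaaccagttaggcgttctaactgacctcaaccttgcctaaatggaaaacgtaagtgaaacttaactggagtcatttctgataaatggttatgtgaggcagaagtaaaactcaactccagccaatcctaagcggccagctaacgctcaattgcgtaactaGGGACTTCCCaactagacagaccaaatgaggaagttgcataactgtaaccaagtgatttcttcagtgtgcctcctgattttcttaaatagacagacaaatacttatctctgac
LOC101929536: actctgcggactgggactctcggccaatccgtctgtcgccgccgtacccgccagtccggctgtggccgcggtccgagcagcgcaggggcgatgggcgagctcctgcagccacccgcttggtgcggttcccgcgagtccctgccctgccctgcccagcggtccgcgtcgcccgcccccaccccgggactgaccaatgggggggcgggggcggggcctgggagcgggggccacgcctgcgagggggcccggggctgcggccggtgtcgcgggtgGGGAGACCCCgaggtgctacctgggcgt

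Before LPS, 28 members were higher and 11 lower in S80A than in WT cells (limma on log2(scaled reads + 1), adjusted p under 0.05), or 20.6% of 189, against 30.7% of all genes tested. By direction these were 14.8% and 5.82% of the members, against 20.1% and 10.6% of all genes. The split of the calls over all genes depended on the scaling: with TMM, which shifts the median difference of all genes by -0.19 log2, 24 members were higher and 11 lower, against 15.0% and 13.9% of all genes, and in edgeR 21 and 10, against 16.5% and 16.1%. All 3 S80A libraries lay above all 3 WT libraries for 25.9% of members and below them for 10.6%, against 31.6% and 17.5% of all genes. The median difference was 0.18 log2 for the members and 0.19 log2 for all genes, and 0.03 log2 and 0.01 log2 with TMM. Without S80A replicate 1 the counts were 39 higher and 14 lower. They fell to 13 and 5 without S80A replicate 2, and to 19 and 5, 14 and 9, and 15 and 5 without WT replicate 1, 2 and 3. Without S80A replicate 3 they were 28 and 6. Over all 3281 genes, 660 were higher and 347 lower with all libraries, and 786 and 414 without S80A replicate 1. Over all genes the counts fell to 312 and 205 without S80A replicate 2, and to 562 and 320 without S80A replicate 3. Without WT replicate 1, 2 and 3 they were 389 and 227, 342 and 187, and 328 and 169.

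Among the members higher in S80A cells at 0 hr, LOC100507403 had 361, 405 and 349 scaled reads in S80A cells and 104, 61.1 and 39.5 in WT cells at that time. At 3 hr it had 2648, 3022 and 2089.8 in S80A cells and 712, 715 and 820.1 in WT cells, so the genotypes did not overlap before or after LPS. The difference was 2.53 ± 0.36 log2 (SE, limma adjusted p = 0.00815) at 0 hr and 1.77 ± 0.22 log2 (SE, limma adjusted p = 0.00167) at 3 hr. LOC101927086, now KLF9-DT, starts 467 bases from KLF9, the gene of a Krüppel-like factor, on the opposite strand. KLF9-DT had 128, 209 and 255 scaled reads in S80A cells at 0 hr, against 26.0, 34.6 and 37.1 in WT cells at 0 hr, and 86.3, 271 and 308 in S80A cells at 3 hr, against 4.70, 6.23 and 10.7 in WT cells at 3 hr. It fell with LPS in WT cells and was not listed in S80A cells, and the genotypes differed by 2.52 ± 0.30 log2 (SE, limma adjusted p = 0.00524) at 0 hr and 4.63 ± 0.53 log2 (SE, limma adjusted p = 0.00148) at 3 hr. LOC102724476 had 9.96, 17.1 and 14.7 scaled reads in S80A cells at 0 hr and 0.866, 0.804 and 1.61 in WT cells at 0 hr, a difference of 2.82 ± 0.25 log2 (SE, limma adjusted p = 0.00346). At 3 hr the genotypes overlapped for it, with 8.97, 11.5 and 2.40 in S80A cells and 5.87, 7.27 and 11.8 in WT cells. RP11-277P12.20, with no reads at 3 hr in either genotype, was higher in S80A cells at 0 hr by 2.17 ± 0.28 log2 (SE, limma adjusted p = 0.00642). BHLHE22-AS1 (LOC401463), LOC101928487, RP11-356I2.4 and MAP3K5-AS2 were higher by 1.29 to 1.74 log2 (limma adjusted p of 0.00427 to 0.0107). RP11-277P12.20 was listed in S80A cells alone, so it became a member through the group where it is high. KLF9-DT, LOC102724476 and BHLHE22-AS1 were listed in WT cells alone. The p-values of these 4 are descriptions.

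Among the members lower in S80A cells at 0 hr, LOC101928004 had 8.96, 3.88 and 2.10 scaled reads in S80A cells and 47.6, 37.0 and 54.9 in WT cells at that time, a difference of -3.14 ± 0.45 log2 (SE, limma adjusted p = 0.00852). It fell with LPS in WT cells, and at 3 hr it had 5.61, 5.75 and 2.40 scaled reads in S80A cells and 18.8, 13.5 and 13.9 in WT cells. The genotypes did not overlap at either time. LOC102723797 had no reads in the S80A libraries at 0 hr, against 3.46, 2.41 and 8.07 scaled reads in WT cells at 0 hr, so it was at least 5.06-fold lower in S80A cells by the floor of 3 reads. At 3 hr LOC102723797 overlapped between genotypes, with 10.1, 15.0 and 32.4 in S80A cells and 22.3, 22.8 and 22.5 in WT cells. C2-AS1 (LOC102060414), across the gene of complement component C2, had no reads in the S80A libraries at 0 hr, against 5 reads over the WT libraries at 0 hr. At 3 hr its difference was -1.51 ± 0.45 log2 (SE, limma adjusted p = 0.0314). Neither call held in every alternative: at 0 hr the adjusted p was 0.378 in DESeq2 and 0.100 in edgeR, and at 3 hr it was 0.0790 in DESeq2 and 0.0612 to 0.104 without S80A replicate 1 or 3 or any of the WT libraries. LOC102724608 had 1.99, 0 and 0 scaled reads in S80A cells at 0 hr, against 9.53, 4.83 and 3.23 in WT cells at 0 hr, and 16.8, 4.60 and 7.19 in S80A cells at 3 hr, against 49.3, 41.5 and 32.1 in WT cells at 3 hr. It rose with LPS in both genotypes and was lower in S80A cells at 3 hr, with a difference of -2.15 ± 0.44 log2 (SE, limma adjusted p = 0.0077). Its call at 0 hr (limma adjusted p = 0.0410) was lost in DESeq2 and without any 1 of S80A replicates 2 and 3 and the WT libraries, at adjusted p of 0.0709 to 0.124. LOC101928004 and C2-AS1 were listed in WT cells alone, so their p-values are descriptions.

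At 3 hr with LPS, 60 members were higher and 27 lower in S80A than in WT cells, or 46.0% of 189, against 47.0% of all genes tested. By direction these were 31.7% and 14.3% of members, against 29.2% and 17.7% of all genes. With TMM scaling, which shifts the median difference of all genes by -0.20 log2, the counts were 46 higher and 34 lower, against 24.3% and 22.6% of all genes, and in edgeR 44 and 31, against 25.7% and 23.4%. The median difference of the members was 0.37 log2, against 0.19 log2 for all genes, and 0.18 log2 against -0.01 log2 with TMM. All 3 S80A libraries lay above all 3 WT libraries for 72 members and below them for 36 (38.1% and 19.0%, against 35.7% and 23.3% of all genes). Without S80A replicate 1 the counts were 64 and 30, without S80A replicate 2 they were 40 and 17, and without WT replicate 2 or 3 they were 45 and 10, and 44 and 16. Over all genes, 959 were higher and 582 lower with all libraries, and 1090 and 698 without S80A replicate 1. Over all genes the counts fell to 699 and 418 without S80A replicate 2. Without WT replicate 2 and 3 they were 712 and 383, and 692 and 363. Calls at both times coincided in direction for 14 higher and 5 lower members, and 64 members were called at 3 hr alone. These combinations of calls were not counted over all genes. Members listed as rising in the S80A table alone were higher in S80A cells for 17 of 30 and lower for none, and those listed as rising in the WT table alone were lower for 17 of 39 and higher for 1. That listing used the same libraries, so this split is a description. For the same reason, the p-values for a genotype difference of members listed in a single table are descriptions, at 3 hr and at 0 hr. Of the 67 members that rose in both genotypes, 23 were higher and 4 lower in S80A cells at 3 hr. The same count was not made for all genes that rose in both, so this split cannot be called particular to the members.

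**Figure D3:**
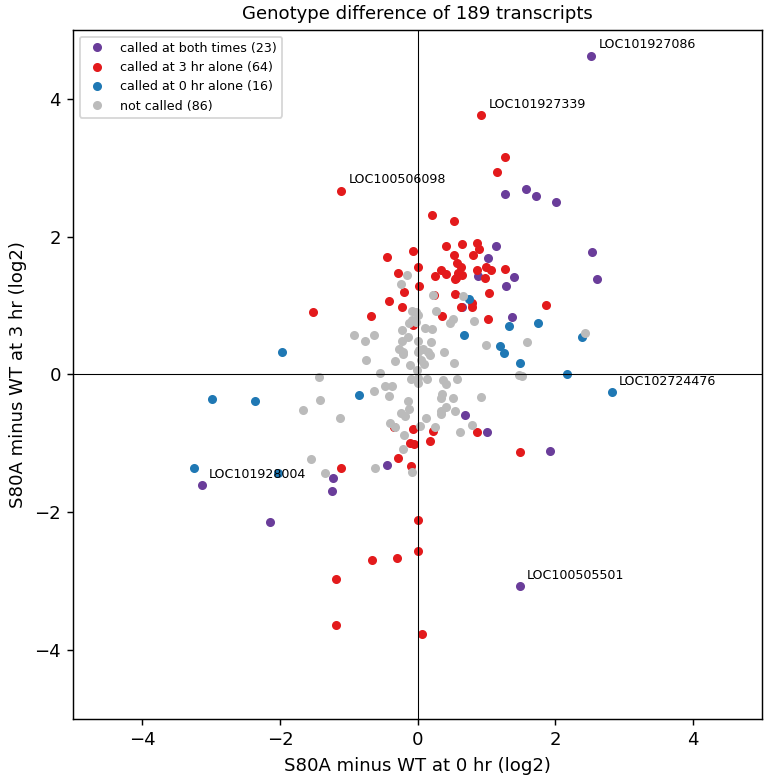
Difference between S80A and WT cells of each of the 189 members on the log2(scaled reads + 1) scale, at 0 hr (horizontal axis) and at 3 hr (vertical axis), coloured by the limma calls at an adjusted p under 0.05. Of these, 23 were called at both times, 64 at 3 hr alone and 16 at 0 hr alone, and LOC100505501 sits at the lower right, higher in S80A cells at 0 hr and lower at 3 hr. These combinations of calls were not counted over all genes.

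The member with the smallest p at 3 hr, LOC101927339, had 10.1, 13.8 and 14.4 scaled reads in S80A cells at 3 hr and no reads in any WT library at either time, which is at least 11.7-fold higher than in WT cells at 3 hr. In S80A cells at 0 hr it had 0, 2.33 and 1.05. LOC101927339 was listed in the S80A table alone and so became a member through the group where it is high. Its p-value is a description. KLF9, which KLF9-DT overlaps, averaged 4076 ± 329.9 scaled reads in S80A cells and 1059 ± 163 in WT cells at 3 hr (SD, n = 3 each), a difference of 1.95 log2 (limma adjusted p = 0.00121). LOC101928377, now JDP2-AS1, starts 69 bases from JDP2, the gene of an AP-1 family repressor, on the opposite strand. JDP2-AS1 had 197, 145 and 101 scaled reads in S80A cells at 3 hr, against 34.1, 27.0 and 23.6 in WT cells at 3 hr, and 52.8, 23.3 and 12.6 in S80A cells at 0 hr, against 25.1, 14.5 and 27.4 in WT cells at 0 hr. The genotypes were apart at 3 hr, by 2.31 ± 0.30 log2 (SE, limma adjusted p = 0.00187), and overlapped at 0 hr. JDP2 itself averaged 6726 ± 3171 in S80A cells and 1728 ± 158 in WT cells at 3 hr, and the 2 genes overlap, so part of their reads may be shared. RP4-553F4.6 had 270.2, 207 and 151 scaled reads in S80A cells at 3 hr, against 31.7, 32.2 and 33.2 in WT cells at 3 hr, a difference of 2.62 ± 0.25 log2 (SE, limma adjusted p = 0.00095). CNIH3-AS2 (LOC102723817), LINC01736 (LOC101927532), LOC101927376, LOC101928126 and LOC729040 were higher by 1.73 to 3.17 log2 (limma adjusted p of 0.00141 to 0.00885). JDP2-AS1, LOC729040 and KLF9 were listed in S80A cells alone, and LINC01736, LOC101928126 and KLF9-DT in WT cells alone. Their p-values are therefore descriptions.

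Of the 27 members lower in S80A cells at 3 hr, 17 were listed as rising in WT cells alone and 4 as rising in both genotypes. LOC101927206 had 4.49, 1.15 and 2.40 scaled reads in S80A cells at 3 hr, against 21.1, 18.7 and 18.2 in WT cells at 3 hr, and none in any library at 0 hr. LOC101928810 likewise had no reads at 0 hr, with 4.49, 2.30 and 1.20 in S80A cells and 17.6, 11.4 and 12.8 in WT cells at 3 hr. LOC102723429 had 12.3, 3.45 and 2.40 in S80A cells and 47.0, 45.7 and 41.8 in WT cells at 3 hr. The genotypes did not overlap for any of the 3, with differences at 3 hr of -2.57 log2 for LOC101927206, -2.11 for LOC101928810 and -2.96 for LOC102723429 (limma adjusted p of 0.00206, 0.00437 and 0.00388). LOC101927206 and LOC101928810, like LOC286186 and LOC101929636 below, were listed in the WT table alone. They became members through the group where they are high, so their differences are descriptions. LOC102723429 was listed in both tables. LINC01299 (LOC286186) had 6 reads over the S80A libraries, against 80 over the WT libraries at 3 hr, and LOC101929636 had 3 over the S80A libraries, against 67 over the WT libraries. NOTCH2NLC (LOC100996717), a human-specific relative of NOTCH2, and the pseudogene SEC22B4P (LOC102724364) were lower, with a difference of -1.36 ± 0.22 log2 (SE, limma adjusted p = 0.00327) for NOTCH2NLC and -1.69 ± 0.28 log2 (SE, limma adjusted p = 0.00357) for SEC22B4P. Both have near-identical copies in the genome, so the division of reads between copies makes their values uncertain, as it does for the transcribed pseudogenes TNIP2P1 and NMRAL2P. SEC22B4P was listed in WT cells alone, so its p-value is a description.

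**Figure D4:**
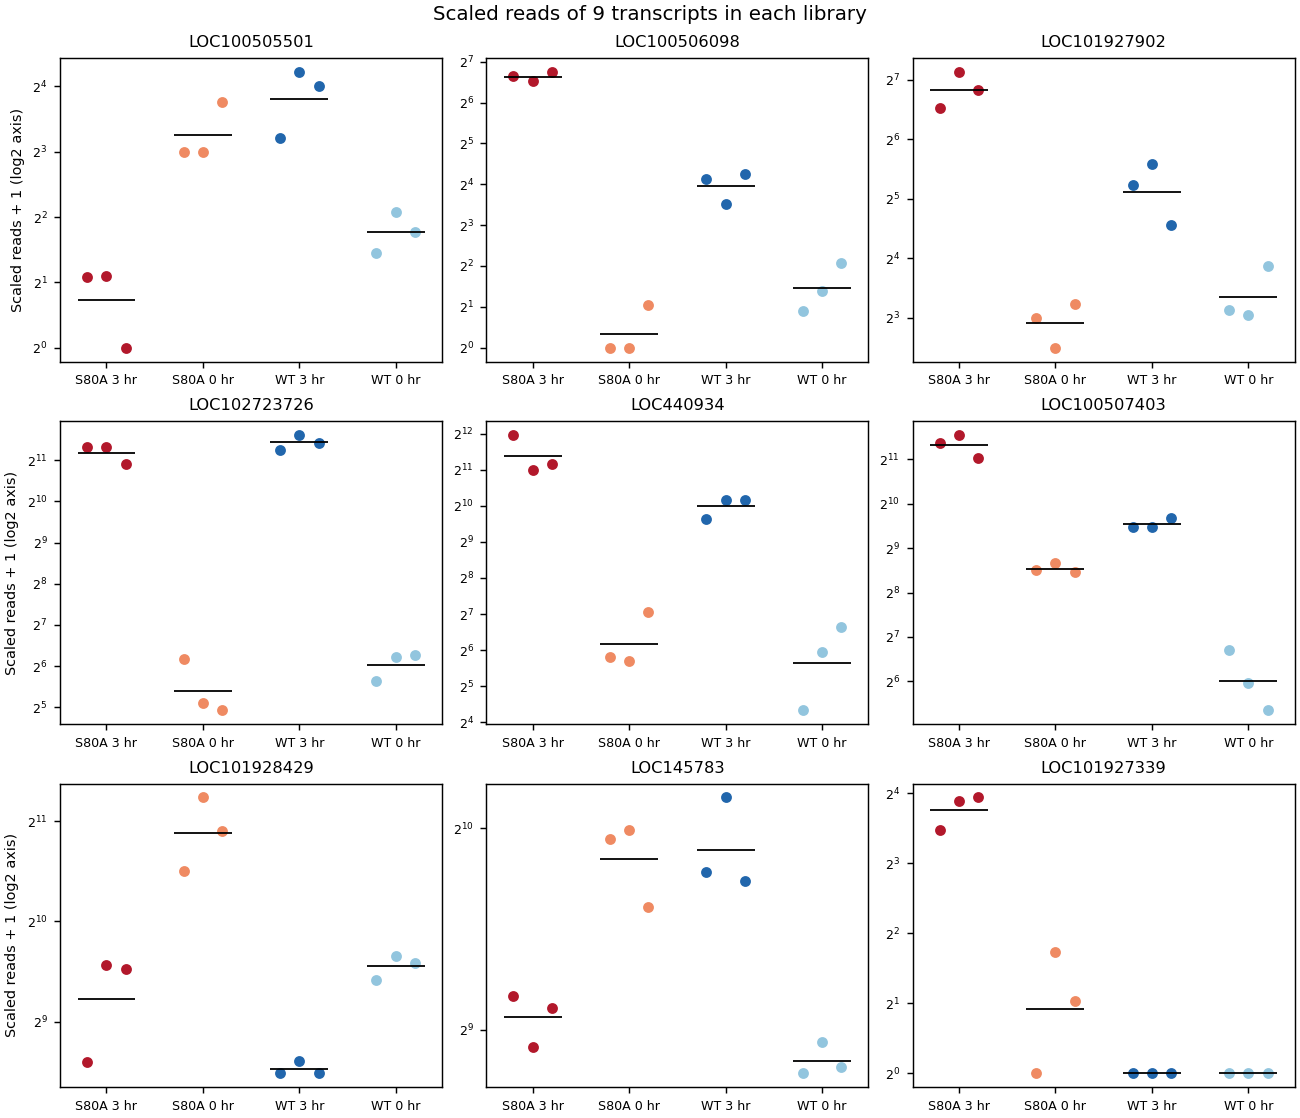
Scaled reads + 1 on a log2 axis for 9 members in each library (points) with the group mean on the log2 scale (bars), for S80A 3 hr, S80A 0 hr, WT 3 hr and WT 0 hr, n = 3 each. LOC100505501 is lowest in S80A cells at 3 hr, LOC100506098 is highest there, and LOC101927339 has no reads in WT cells.

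The genotype difference at 3 hr was also set beside that of the coding partner. Of all genes, 29.2% were higher and 17.7% lower in S80A cells. Pairs of other listed genes and their neighbours were not counted in this way. The counts are therefore descriptions and cannot be called particular to the members. Of the 20 members that were higher in S80A cells and had a listed partner, 18 partners were higher and 0 lower. Both members that were lower had a lower partner. Of the 26 members that were not called, 6 partners were higher and 4 lower. Among pairs that do not overlap, 11 of 12 partners of higher members were higher, and 4 of 11 partners of members not called. CRIM1 averaged 8159.8 ± 1008 scaled reads in S80A cells and 1972 ± 175 in WT cells at 3 hr, and CRIM1-DT 59.9 ± 8.67 in S80A cells and 20.6 ± 5.70 in WT cells (SD, n = 3 each), with a difference of 1.52 ± 0.26 log2 (SE, limma adjusted p = 0.00437) for CRIM1-DT and 2.04 log2 (limma adjusted p = 0.000971) for CRIM1. LRRC32 averaged 3120.2 ± 1310.5 in S80A cells and 358 ± 33.3 in WT cells at 3 hr, beside 71.3 ± 3.98 in S80A cells and 39.6 ± 8.82 in WT cells for LINC02757, which was higher by 0.85 ± 0.22 log2 (SE, limma adjusted p = 0.0195), a call lost with TMM, in edgeR and in 5 other alternatives (adjusted p of 0.0510 to 0.0952). ITGB8-AS1 (LOC101927811), within the gene of integrin beta 8, was higher by 1.46 ± 0.32 log2 (SE, limma adjusted p = 0.0105), and ITGB8 by 2.87 log2 (limma adjusted p = 0.00134). CRIM1-DT, ITGB8-AS1 and their partners were chosen for naming after their values were seen. ITGB8-AS1 was listed in S80A cells alone, so its p-value is a description.

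The LPS response itself differed between genotypes for 3 of the 85 members listed in both tables (limma interaction term, adjusted p under 0.05), or 3.53%, against 4.48% of the 1562 genes tested. It was higher in S80A cells for 2, or 2.35%, against 2.69% of those genes, and lower for 1, or 1.18%, against 1.79%. The median difference of the 85 members was 0.25 log2, against 0.00 log2 for those genes. With replicate number as a block it was higher for 4, with LOC102723797 and RP4-553F4.6 added, and lower for 1. Without S80A replicate 1 at both times it was higher for 5 and lower for 4, against 80 and 107 of the 1562 genes. LOC100505501, now TOX-DT, lies 63 bases from TOX, the gene of a nuclear protein known from T cell development, and was the member listed in opposite directions. TOX-DT had 1.12, 1.15 and 0 scaled reads in S80A cells at 3 hr, against 6.97, 6.98 and 12.6 in S80A cells at 0 hr, and 8.22, 17.6 and 15.0 in WT cells at 3 hr, against 1.73, 3.22 and 2.42 in WT cells at 0 hr. The times did not overlap in either genotype, falling with LPS in S80A cells and rising in WT cells. The LPS response, S80A minus WT, was -4.56 ± 0.53 log2 (SE, limma adjusted p = 0.000978). It rests on few reads, 2 over the S80A libraries at 3 hr and 28 at 0 hr, beside 38 over the WT libraries at 3 hr and 9 at 0 hr. DESeq2 gave no adjusted p for it.

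LOC100506098, now GIRGL, a transcript named for its role in the response to glutamine shortage, lies 193 bases from MACC1 at chr7:20217577-20221700. It had 98.7, 90.9 and 107 scaled reads in S80A cells at 3 hr, against 0, 0 and 1.05 in S80A cells at 0 hr, and 16.4, 10.4 and 18.2 in WT cells at 3 hr, against 0.866, 1.61 and 3.23 in WT cells at 0 hr. All S80A libraries lay above all WT libraries at 3 hr, by 2.67 ± 0.25 log2 (SE, limma adjusted p = 0.000913), and the genotypes overlapped at 0 hr. The LPS response of GIRGL differed by 3.78 ± 0.51 log2 (SE, limma adjusted p = 0.00147). Its neighbour MACC1 had log2 fold changes of 4.46 in S80A cells and 4.39 in WT cells in the authors' deposited tables, beside 6.40 in S80A cells and 2.60 in WT cells for GIRGL. MACC1 was higher in S80A cells at 3 hr by 1.28 log2 (limma adjusted p = 0.0201). LOC101927902 had 90.8, 139 and 113 scaled reads in S80A cells at 3 hr, against 6.97, 4.65 and 8.40 in S80A cells at 0 hr, and 36.4, 46.7 and 22.5 in WT cells at 3 hr, against 7.79, 7.24 and 13.7 in WT cells at 0 hr. The genotypes overlapped at 0 hr and not at 3 hr, and the LPS response differed by 2.15 ± 0.46 log2 (SE, limma adjusted p = 0.0236). The adjusted p of LOC101927902 passed the threshold narrowly: it ranged from 0.00974 to 0.0721 over 21 alternatives, and was 0.0608 in edgeR, 0.0608 without S80A replicate 2 at 3 hr, 0.0721 without S80A replicate 2 at 0 hr, 0.0616 without WT replicate 3 at 3 hr and 0.0601 without WT replicate 3 at 0 hr.

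In a fit over all 3281 genes the LPS response was higher in S80A cells for 12 of the 189 members and lower for 10 (6.35% and 5.29%, against 7.19% and 6.95% of all genes). Most of these members are in 1 table, which is itself a difference between genotypes, so the values are a description. LOC145783, now TCF12-DT, starts 145 bases from TCF12, the gene of an E-protein transcription factor. TCF12-DT had 574, 481 and 552 scaled reads in S80A cells at 3 hr, against 985, 1017 and 781 in S80A cells at 0 hr, and 881, 1138 and 853 in WT cells at 3 hr, against 440.0, 489.8 and 449 in WT cells at 0 hr. It was lower at 3 hr than at 0 hr in S80A cells and higher in WT cells, with no overlap in either genotype. The genotype difference was 1.00 ± 0.14 log2 (SE, limma adjusted p = 0.0085) at 0 hr and -0.83 ± 0.21 log2 (SE, limma adjusted p = 0.0171) at 3 hr, and the LPS response differed by -1.83 ± 0.26 log2 (SE, limma adjusted p = 0.00259) in the fit over all genes. TOX-DT, TCF12-DT, PYGO2-AS1 (LOC101928120) and LOC102724129 were the 4 members that were higher in S80A cells at 0 hr and lower at 3 hr, and none went the other way. Such reversals were not counted over all genes, so this count cannot be called particular to the members. PYGO2-AS1 and LOC102724129 were named after their values were seen, and their calls were lost in several alternatives: the adjusted p reached 0.347 at 0 hr and 0.552 at 3 hr for PYGO2-AS1, and 0.0550 at 0 hr and 0.129 at 3 hr for LOC102724129. The call of TCF12-DT at 3 hr was lost without S80A replicate 2 and without WT replicate 2 (adjusted p of 0.0661 and 0.0679), and that of TOX-DT at 0 hr in DESeq2 and edgeR and without WT replicate 1 or 3 (0.0543 to 0.0881). The values of antisense members that overlap their partner, such as MAP3K5-AS2 and PYGO2-AS1, may include reads of the partner.

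Some long non-coding RNAs of macrophage activation that have symbols of their own were also listed. From a list of 24 symbols, which includes older symbols of the same genes, 6 rose in S80A cells (MIR155HG, MIR17HG, LUCAT1, NEAT1, MALAT1 and LINC00152) and 5 in WT cells (MIR155HG, MIR17HG, LUCAT1, NEAT1 and C5orf56) by the authors' call, and none fell in either genotype. Of a list of 73 symbols of LPS-induced coding genes, 69 rose in S80A cells and 67 in WT cells, and none fell. Members beside a gene of that list were CCL3-AS1, LOC101927369 near CCL4 and LOC101928236 near PTX3, the gene of a soluble pattern recognition protein. LOC101928236 averaged 31.9 ± 13.3 scaled reads in S80A cells at 3 hr and 14.9 ± 4.57 in S80A cells at 0 hr, beside 32.8 ± 9.35 in WT cells at 3 hr and 11.7 ± 5.26 in WT cells at 0 hr (SD, n = 3 each). LOC101927369 had 13 reads over the S80A libraries at 3 hr and 1 at 0 hr, beside 18 over the WT libraries at 3 hr and 0 at 0 hr. Genotypes overlapped at 3 hr for both.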

How the data were processed

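RNA-seq libraries of THP-1 cells were made from poly(A) RNA with a stranded kit and sequenced single-end (75 bases, target 20 M reads), per the labels' protocols. Per the submitters' processing notes, the build was GRCh38 and the tools included HISAT, StringTie, HTSeq and DESeq2, with Cuffdiff and FastQC. The sources used here do not give the annotation or how the counting treated strand. The authors deposited a table per genotype with their log2 fold change of 3 hr over 0 hr, their raw p-value, the adjusted one, and a signal value for each of the 12 libraries. The deposited signal values are scaled read counts, with 1 size factor for each library, since 100% of values are whole multiples of the value of 1 read to within 0.01 reads. The tables hold only called genes, and other genes were not analysed here. No column belonged to another sample (0 columns).

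Tests used limma on log2(scaled reads + 1), a scale that understates changes of genes with few reads, with Benjamini-Hochberg adjustment over all genes of the fit at 0.05: the interaction over the 1562 genes in both tables (12 libraries), and the genotype difference at each time over 3281 genes (6 libraries). Alternatives were a pseudocount of 5, a minimum mean of 10 scaled reads, TMM factors, edgeR's quasi-likelihood test and DESeq2 on the recovered reads, a replicate block, the interaction over all genes, a fit of all 12 libraries, limma's trend and leaving out each library. Same-numbered libraries deviated together (Pearson r across genes of 0.196 to 0.299 for S80A 3 hr with S80A 0 hr, 0.153 to 0.343 for WT 3 hr with WT 0 hr and 0.188 to 0.259 between genotypes at 0 hr). Between genotypes at 3 hr the same-numbered pairs had r of 0.064 to 0.196, beside -0.255 to 0.147 for pairs of different numbers. On simulated counts for the 1562 interaction genes, 12% of differences of 1 log2 and 64% of 2 log2 were recovered, at 3 hr over 3281 genes 13% and 83%, and at 0 hr 21% and 59%. In the simulation 100 genes were changed by each amount, against 1541 called at 3 hr and 1007 at 0 hr in the data. The Benjamini-Hochberg threshold depends on that share, so recovery at these times need not hold for the data.

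Members and gene lists were chosen with earlier results of these data known. Members listed in a single table were selected through libraries that the genotype tests also use, so their genotype p-values are descriptions. Named are the 10 largest rises and falls per table among members with at least the median mean, up to 10 members per direction for each tested difference, members listed in opposite directions, the 5 with the highest mean and members beside a listed inflammatory gene. Members named outside this rule (CRIM1-DT, ITGB8-AS1, PIK3R5-DT, CYLD-AS1, LOC101928230, TNIP2P1, NMRAL2P, PYGO2-AS1, LOC102724129, SETBP1-DT and LNROP) were chosen after their values were seen. Places and promoters are from RefSeq on GRCh38.p14 (35116 promoters of 27305 genes). Ratios of reads carry exact 95% counting intervals, and the floor is 3 reads over a group. The tools were limma 3.58.1, DESeq2 1.42.0 and edgeR 4.0.16 in R 4.3.3. Figures were drawn with matplotlib 3.10.9 in Python 3.11.15.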

Additional observations from a re-analysis of the deposited data

Results flagged for a closer look

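The LPS response differed between genotypes by a test of the difference itself for 3 members. For TOX-DT (LOC100505501) the LPS response, S80A minus WT, was -4.56 log2, with a fall in S80A cells and a rise in WT cells. For GIRGL (LOC100506098) it was 3.78 log2, and for LOC101927902 it was 2.15 log2, both rising in both genotypes and more in S80A cells. Among the 1562 genes tested, 4.48% had such a difference.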

How the results depend on the processing

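The number of members with a higher LPS response in S80A cells was 2. It was 1 in edgeR, 4 with a replicate block, 12 over all genes of either table and 5 without S80A replicate 1 at both times, an alternative added after seeing the data, as was limma's trend. The number with a lower response was 1. It was 2 with a pseudocount of 5, 0 with a minimum mean of 10 (a filter that leaves 71 of the 85 members and removes TOX-DT), 0 in DESeq2, 10 over all genes and 4 without S80A replicate 1 at both times. Lower members at 0 hr numbered 11, and 6 with a minimum mean of 10, which leaves 139 members. Leaving out each library gave 1 to 4 members with a higher and 1 to 2 with a lower response, 13 to 39 higher and 5 to 14 lower members at 0 hr, and 40 to 64 higher and 10 to 30 lower members at 3 hr. Tested again with limma, the LPS calls without a library numbered 97 rising and 27 to 28 falling in S80A cells, and 106 to 107 rising and 41 falling in WT cells. The members were chosen by their LPS calls on these same libraries, so this retest is no separate support for them. With a replicate block the counts were 33 higher and 14 lower at 0 hr and 61 and 22 at 3 hr. Between genotypes at 3 hr, same-numbered libraries deviated together only weakly (Pearson r of 0.064 to 0.196). No named difference reversed. Of all members called, 41 of 87 at 3 hr, 25 of 39 at 0 hr and 1 of 3 for the LPS response lost the call in at least 1 alternative. At 3 hr these included CT75 (adjusted p up to 0.0542), RP11-85F14.5 (0.0652), TCF12-DT (0.0679), LINC02757 (0.0952), C2-AS1 (0.104), LOC102724129 (0.129) and PYGO2-AS1 (0.552). For the LPS response TOX-DT is counted as kept, although the minimum mean removed it and DESeq2 gave it no adjusted p. Of the repeats of named differences, 389 stayed past the threshold at 3 hr and 35 did not, 267 stayed and 46 did not at 0 hr, and for the LPS response 56 stayed and 5 did not, and the cause was not tested. Some members had few reads: 38 had 3 or fewer over the S80A libraries at 0 hr. The part of low counts in the lost calls was not tested. On counts simulated over all tested genes, differences of 1 log2 were mostly not recovered with 3 libraries per group. At 0 and 3 hr far fewer genes differed in the simulation than were called in the data. Recovery at those times therefore need not hold for the data. Recovery was not computed for the members alone.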

Other observations

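LOC101928841, one of the strongly rising members, was high in replicate 1 of both genotypes. It had 1614, 389.9 and 301 scaled reads in S80A cells at 3 hr and 658, 205 and 207 in WT cells at 3 hr, for replicates 1, 2 and 3. At 0 hr the replicates were closer, with 61.7, 48.9 and 43.0 in S80A cells and 42.4, 41.0 and 41.9 in WT cells. The LPS response did not pass the test between genotypes, at 0.65 ± 0.83 log2 (SE, limma adjusted p = 0.802).

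SETBP1-DT (LOC101927943), which lies 201 bases from SETBP1, a gene of a DNA-binding protein mutated in myeloid leukaemias, fell with LPS in WT cells together with its partner. It averaged 8.20 ± 5.38 scaled reads in S80A cells at 3 hr and 14.9 ± 1.64 in S80A cells at 0 hr, beside 1.44 ± 0.553 in WT cells at 3 hr and 15.9 ± 3.23 in WT cells at 0 hr (SD, n = 3 each). At 3 hr it was higher in S80A cells by 1.79 ± 0.41 log2 (SE, limma adjusted p = 0.0123). LNROP (LOC100505622), named as a regulator of its neighbour POU2F2, the gene of the transcription factor OCT2, rose in WT cells and overlapped between genotypes at 3 hr, while POU2F2 was lower in S80A cells at 3 hr, with a difference of -1.34 log2 (limma adjusted p = 0.0041). SETBP1-DT and LNROP were named after their values were seen. SETBP1-DT was listed in WT cells alone, so its p-value is a description.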
